A study of Mus musculus with 22 samples.

Results

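The D-type cyclins are Ccnd1, Ccnd2 and Ccnd3, which were chosen by name and are 3 of the 20668 genes counted in single nuclei and 3 of the 16304 genes counted in single whole cells of the mouse hypothalamus. All 3 were measured in both. D-type cyclins bind the kinases Cdk4 and Cdk6, and the complexes phosphorylate the retinoblastoma protein (Rb), which releases E2F transcription factors and lets a cell enter S phase. Their transcription is known to respond to growth factors through the MAPK pathway, which makes them a standard readout of mitogen signaling, and Ccnd1 and Ccnd2 are also known from neural precursors and glia. In glia, Ccnd1 is commonly seen in oligodendrocyte precursor cells (OPCs), while tanycytes and ependymal cells, which line the third ventricle, are among the cells that meet a factor given into the cerebrospinal fluid first.

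The 3 genes encode proteins that begin alike, and the first 30 coding bases of each are shown to mark the stretch that all 3 share, the codons of the LxCxE motif through which D-type cyclins contact Rb. The capitals mark those codons, which are codons 5 to 9 in Ccnd1 and codons 3 to 7 in Ccnd2 and Ccnd3.
Ccnd1: atggaacaccagCTCCTGTGCTGCGAAgtg
Ccnd2: atggagCTGCTGTGCTGCGAGgtggacccg
Ccnd3: atggagCTGCTGTGTTGCGAGggcacccgg
The bases are those of transcript 201 of each gene in GENCODE vM21 on GRCm38, and these transcripts hold 295, 289 and 292 codons. Ccnd1 lies at chr7:144929931-144939925 on the minus strand, Ccnd2 at chr6:127125162-127152193 on the minus strand and Ccnd3 at chr17:47505051-47599691 on the plus strand. Each overlaps a gene on the other strand (LTO1 for Ccnd1, Gm43126 and 9330179D12Rik for Ccnd2, Bysl for Ccnd3), and whether counting used strand was not stated.

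Male Lep ob/ob mice, which lack leptin and are obese and diabetic, were about 11 weeks old and received 3 µg of human FGF1 (fibroblast growth factor 1) or phosphate-buffered saline as vehicle, given once into the lateral ventricle of the brain. All mice shared the ob/ob genotype, and the vehicle mice were pair-fed to the intake of the FGF1 mice. Each library came from 1 mouse. Nuclei were taken 24 h after injection (Day 1) from 3 FGF1 and 3 vehicle mice and on Day 5 from 2 FGF1 and 2 vehicle mice, and whole cells on Day 5 from 6 FGF1 and 6 vehicle mice of another cohort, with neurons removed by the authors.

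The libraries held 2652897 to 16345981 unique molecular identifiers (UMIs), each of which stands for 1 captured transcript. The D-type cyclins were sparse in nuclei. All 3 Day 1 FGF1 mice together gave 424 Ccnd1, 663 Ccnd2 and 1048 Ccnd3 UMIs and the vehicle mice 89, 257 and 697, whereas the 6 FGF1 mice with whole cells gave 2351, 7055 and 2069. Levels below are UMIs of the gene per 1000000 UMIs (CPM) of that mouse's nuclei or cells of 1 type. Nuclei keep the authors' annotation. Nuclei labelled Tany met 7 of 10 tanycyte markers and all 8 astrocyte markers, and those labelled Epend met 5 of 6 ependymal and all 8 astrocyte markers. Both labels thus also hold an astrocyte signal. Whole-cell clusters are given by number, and a name such as tanycyte-like rests on markers. In nuclei, 318 barcode sequences occurred in more than 1 library, and in whole cells 1791 did.

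One day after the injection, Ccnd1 was higher with FGF1 in ependymal cells, tanycytes and astrocytes, and no D-type cyclin was called lower in any type. Of the 54 pairs of a cyclin and a type (3 genes in 18 types), 12 passed the filter on low counts and 3 were called by edgeR at a false discovery rate (FDR) below 0.05, all 3 of them Ccnd1 and all 3 higher. Across all genes, 0.653% of the 72292 gene-by-type tests were called higher and 0.393% lower. In ependymal nuclei alone 10.2% of genes were called higher, in tanycytes 5.38% and in astrocytes 1.39%. Ccnd1 passed the filter in these types only through its FGF1 mice, so passing already required a difference.

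In ependymal nuclei, Ccnd1 stood at 291, 294 and 215 CPM in the FGF1 mice and at 0, 16.5 and 0 CPM in the vehicle mice. The groups lay far apart, and the vehicle value of 16.5 CPM was a single UMI. With 55 FGF1 UMIs against 1, the ratio of the pooled levels was 53.1 (95% interval 9.15 to 2136, counting error only), and the fitted log2 fold change was 5.27 ± 0.74 (SE, FDR = 0.000102).

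In tanycyte nuclei, Ccnd1 levels were 95.3, 73.1 and 126 CPM with FGF1 and 0, 7.13 and 0 CPM with vehicle, again with 1 vehicle UMI against 59. The pooled ratio was 33.8 (5.84 to 1359) and the log2 fold change 4.82 ± 0.81 (FDR = 0.00319). In astrocytes, the FGF1 mice had 62.8, 57.6 and 42.6 CPM and the vehicle mice 0, 9.95 and 0 CPM, a pooled ratio of 9.79 (4.35 to 27.3) from 105 UMIs against 6. The astrocyte log2 fold change was 3.32 ± 0.70 with an FDR of 0.0439, close to the threshold, and it missed the threshold with batch as a covariate (FDR = 0.125), with RLE size factors (0.0501) and without vehicle mouse 1 (0.203), 2 (0.0812) or 3 (0.0957). Without FGF1 mouse 1 or 2 it did not pass the filter, so 1 of 6 fits that left out a mouse kept the call. Across the fits made, the log2 fold change ran from 2.97 to 7.56 in astrocytes, from 4.81 to 7.17 in ependymal nuclei and from 4.21 to 7.01 in tanycytes. When nuclei above the stated mitochondrial or ribosomal limit were left out, Ccnd1 no longer passed the filter in astrocytes and tanycytes, while the ependymal call held (FDR = 7.29e-05). In all 3 of these types, every vehicle UMI of Ccnd1 came from vehicle mouse 2, while the other vehicle mice had none. FGF1 was higher in each of the 3 batches, which hold 1 mouse of each group.

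**Figure D1:**
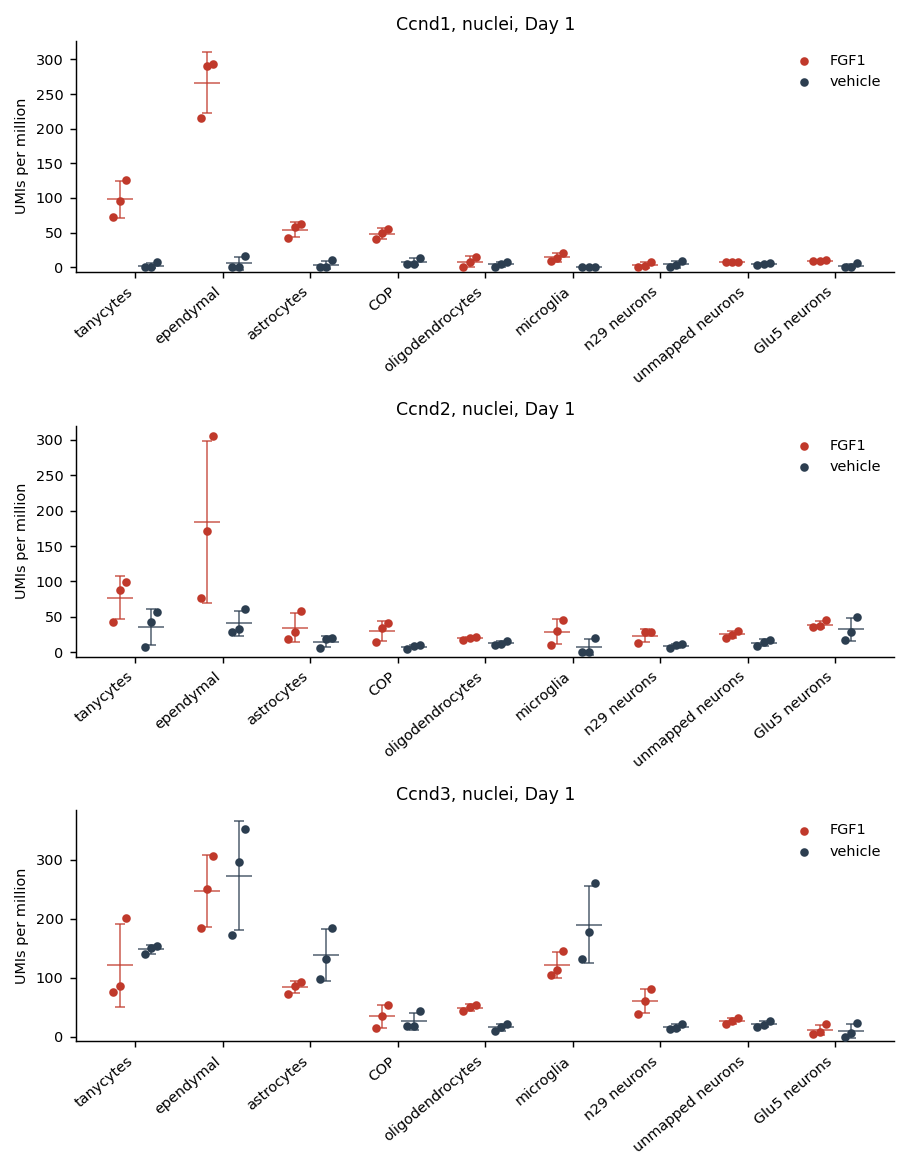
Levels of Ccnd1, Ccnd2 and Ccnd3 in Day 1 nuclei (vertical axis, CPM) by annotated type (horizontal axis) for FGF1 mice (red) and vehicle mice (dark blue). Points are mice, and bars are the mean ± SD of 3 mice. Ccnd1 stands apart between groups in ependymal, tanycyte, astrocyte and COP nuclei, where the FGF1 points lie between 40.6 and 294 CPM and the vehicle points between 0 and 16.5 CPM.

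Beyond these 3 types, nuclei labelled COP (committed oligodendrocyte precursors) met all 6 COP markers and also 4 of 6 OPC markers, with the OPC receptor gene Pdgfra among their 10 leading genes, so the label holds both signals. Ccnd1 stood in them at 48.7, 55.9 and 40.6 CPM with FGF1 and 13.6, 4.79 and 4.63 CPM with vehicle. These groups did not overlap either, and the pooled ratio was 6.67 (2.58 to 21.9, 32 UMIs against 5). The gene did not pass the filter there, and without the filter its FDR was 0.0616. Microglia had 7 Ccnd1 UMIs in all with FGF1 and none with vehicle, which is at least 1.98-fold higher against a floor of 3 UMIs over the vehicle group. Unmapped neurons, the largest type, had 8.04, 7.68 and 6.91 CPM with FGF1 and 4.38, 5.82 and 2.87 CPM with vehicle (log2 fold change 0.78 ± 0.37, FDR = 0.722), so every FGF1 mouse had a lower Ccnd1 level in these neurons than in its astrocytes.

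To ask whether the Ccnd1 effect differed between types, the effect in each type was set against the mean effect in the others over the 13 types with a Ccnd1 UMI in both groups. These types were chosen after the data were seen, and the choice leaves out microglia, so the differences are given as a description. In ependymal nuclei, with 1 vehicle UMI, the effect was larger by 4.17 ± 1.13 on the log2 scale (edgeR, FDR = 0.0277 over 9447 genes, of which 0.466% were called higher). The differences were 3.58 ± 1.15 in tanycytes (FDR = 0.0551, 1.53% of genes called higher), 1.84 ± 0.77 in astrocytes (FDR = 0.236, 0.932%) and 1.05 ± 0.86 in COP (FDR = 1). Over all 18 types the contrast could be estimated for Ccnd1 in 0, so whether its effect differed between types was not settled. For Ccnd2 the contrast had an SE below 5 in 13 types, ependymal nuclei and COP not among them, and for Ccnd3 in 15. None of these was called, with 0.459% of all such tests called, and Ccnd3 in tanycytes gave −1.14 ± 0.44 (FDR = 0.137). The mean in each of these contrasts includes types without an estimate. They therefore do not settle whether the Ccnd2 and Ccnd3 effects differed between types.

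Markers of the types moved with treatment in the same libraries. The summed level of the 6 ependymal markers was 628 to 1094 CPM with FGF1 and 2134 to 2573 CPM with vehicle in ependymal nuclei, 12.5 to 33.2 against 255 to 435 CPM in tanycytes, and 12.2 to 21.8 against 73.1 to 92.7 CPM in astrocytes. The tanycyte list in tanycytes stood at 891 to 1273 against 1318 to 2068 CPM and the astrocyte list in astrocytes at 2171 to 3821 against 3861 to 5614 CPM. Neuron markers in ependymal nuclei ran the other way, 2781 to 5853 against 2293 to 2664 CPM. The part of these shifts in the Ccnd1 result was not tested.

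Ccnd2, the D-type cyclin of many neural precursors, passed the filter in 1 of 18 Day 1 types and was not called there. In ependymal nuclei it stood at 76.6, 171 and 305 CPM with FGF1 and 61.2, 33.0 and 28.6 CPM with vehicle, so every FGF1 mouse lay above every vehicle mouse but the FGF1 mice differed widely among themselves. The gene did not pass the filter there, and its FDR without the filter was 0.0165. In COP the FGF1 mice had 34.1, 41.2 and 13.5 CPM and the vehicle mice 9.09, 4.79 and 9.26 CPM, also without overlap. Unmapped neurons, where Ccnd2 was tested, gave 19.9, 24.6 and 30.1 against 14.7, 17.2 and 8.05 CPM (log2 fold change 0.88 ± 0.32, FDR = 0.652).

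Ccnd3, which is widely expressed, passed the filter in 7 of 18 Day 1 types, showed no call in them and leaned in different directions by type. It stood at 39.2, 61.4 and 81.2 CPM with FGF1 and 21.8, 12.5 and 15.1 CPM with vehicle in n29.Nr5a1/Adcyap1 neurons, a type named for a ventromedial hypothalamic transcription factor and a neuropeptide (log2 fold change 1.81 ± 0.41, FDR = 0.105, and 0.00265 without the filter). In oligodendrocytes it was 50.7, 43.3 and 54.7 against 10.5, 22.1 and 16.3 CPM (1.54 ± 0.40, FDR = 0.372). Neither pair of groups overlapped. In the types where Ccnd1 was called, Ccnd3 did not share that pattern. Astrocytes had 86.2, 92.6 and 73.0 CPM of Ccnd3 with FGF1 and 132, 97.8 and 185 CPM with vehicle, the 1 pair of 54 in which every FGF1 mouse was below every vehicle mouse (log2 fold change −0.61 ± 0.40, FDR = 0.808). Tanycytes and ependymal cells gave log2 fold changes of −0.38 (FDR = 0.651) and −0.16 (FDR = 0.795).

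Over all 54 pairs, with or without passing the filter, 16 had every FGF1 mouse above every vehicle mouse (7 for Ccnd1, 6 for Ccnd2 and 3 for Ccnd3) and 1 had every FGF1 mouse below. The share over all genes without the filter was not computed, so these counts cannot be judged against it. Among the 12 pairs that passed the filter these counts were 7 and 1, and among all genes that passed it, 7.17% of tests had FGF1 above and 8.34% below. Passing through the FGF1 mice alone fixed that direction for Ccnd1 in 3 of the 7. At equal depth, with each nucleus thinned to 1000 UMIs, a Ccnd1 UMI was found in 22.5% ± 9.4 (SD, n = 3) of ependymal nuclei, 7.79% ± 0.73 of tanycytes and 4.65% ± 0.93 of astrocytes of FGF1 mice and in 0 of the 47, 87 and 250 vehicle nuclei. Without thinning the shares were 50.7%, 23.1% and 15.8% against 2.56%, 0.952% and 1.35%. Unmapped neurons, with a median of 2214 UMIs per nucleus in FGF1 and 3229 in vehicle mice, gave 0.735% ± 0.146 against 0.361% ± 0.367 after thinning. With 3 mice per group the exact two-sided permutation test cannot go below 0.1, and no share differed after adjustment over the 54 tests.

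On Day 5, none of the 33 pairs in nuclei (3 genes in 11 types) was called. Of these pairs 12 passed the filter, and 0 reached an unadjusted p below 0.05 in edgeR, while 0.0769% of all 71541 tests were called higher and 0.211% lower. In 3 of the 33 pairs, with or without passing the filter, every FGF1 mouse lay above every vehicle mouse and in 8 below. No share over all genes without the filter was computed for these counts. Among the 12 pairs that passed the filter these counts were 1 and 2, where 18.0% and 20.7% of all tests that passed it did so. In astrocytes, Ccnd1 was at 7.39 and 11.2 CPM with FGF1 and 8.58 and 34.6 CPM with vehicle, and in COP at 9.88 and 9.07 against 10.5 and 12.0 CPM, where both FGF1 mice lay below both vehicle mice. Both FGF1 values in each type were thus below the lowest FGF1 value of Day 1, which came from other mice and other batches. Vehicle mouse 38, with 33 astrocytes, gave the value of 34.6 CPM from 5 UMIs.

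Tanycytes and ependymal nuclei could not be tested on Day 5, since fewer than 2 vehicle mice had 10 of them. The 2 FGF1 mice had 0 and 5.99 CPM of Ccnd1 in tanycytes and 19.9 and 7.72 CPM in ependymal nuclei, from 6 UMIs in all, and 1 vehicle mouse had 15 CPM in tanycytes. Each FGF1 level was below the lowest FGF1 level of that type on Day 1, which was measured in other mice and other batches.

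Whether the FGF1 effect differed between the days was tested in a fit over the 4 groups of nuclei, for 13 pairs of a cyclin and a type. Day 1 nuclei came from batches 3, 4 and 5 and Day 5 nuclei from batches 1 and 2, so day and batch cannot be told apart. Ccnd1 in astrocytes had the largest difference, 4.04 ± 1.12 on the log2 scale (Day 1 minus Day 5), with an unadjusted p of 0.00293 from edgeR and an FDR of 0.361, and Ccnd1 in COP gave 2.86 ± 1.62 (FDR = 0.890). For Ccnd3 the difference was 2.30 ± 0.76 in n29.Nr5a1/Adcyap1 neurons (FDR = 0.735) and 1.68 ± 0.60 in oligodendrocytes (FDR = 1.00). None of the 13 was called and 3 had an unadjusted p below 0.05 in edgeR, while 0.00784% of all tests were called.

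**Figure D2:**
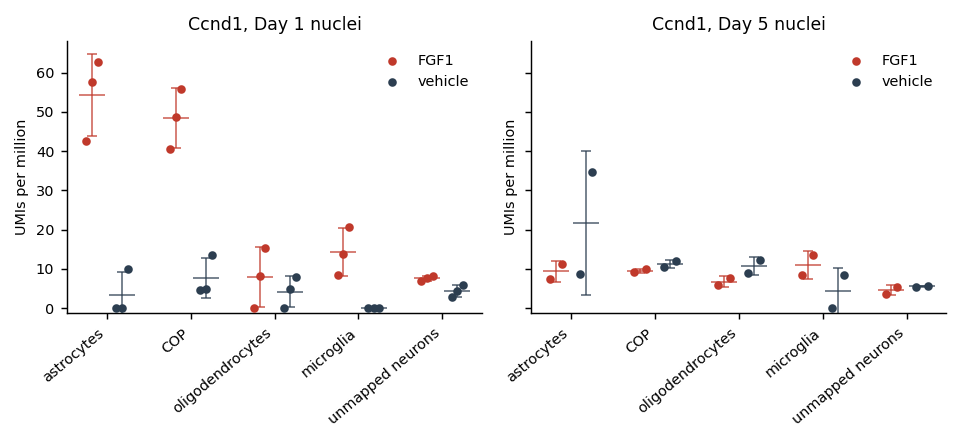
Ccnd1 in nuclei (vertical axis, CPM) on Day 1 (left) and Day 5 (right) by annotated type, for FGF1 mice (red) and vehicle mice (dark blue), with points for mice and bars for mean ± SD. The FGF1 astrocytes and COP of Day 1 lie at 40.6 to 62.8 CPM and those of Day 5 at 7.39 to 11.2 CPM. The days share no mouse and no batch.

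In whole cells on Day 5, a larger cohort, Ccnd1 was higher with FGF1 in OPC-like cluster 5 and in 1 of 3 tanycyte-like clusters, and Ccnd2 was higher in 3 tanycyte-like clusters and in endothelial-like cells. Of 48 pairs (3 genes in 16 clusters), 23 passed the filter and 6 were called, all higher, against 0.854% of 67441 tests called higher and 0.896% lower. Ccnd3 was called in none of its 8 tested clusters. The call of Ccnd1 in cluster 5 held when any 1 of the 12 mice was left out, whereas each of the other 5 calls was lost for at least 5 choices of the mouse. The called pairs differed by 1.30-fold to 1.65-fold.

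Among the 16 clusters tested, Ccnd1 was most abundant in OPC-like cluster 5. Its lowest, median and highest levels there were 472, 575 and 682 CPM in FGF1 mice and 316, 368 and 538 CPM in vehicle mice. Each of the 6 FGF1 mice lay above 5 of the 6 vehicle mice, and FGF1 was higher in 6 of 6 batches. The log2 fold change was 0.55 ± 0.12 (FDR = 0.00969), and 1.2% of the genes tested in that cluster were called higher. In tanycyte-like cluster 0, Ccnd1 stood at 24.7, 33.7 and 43.9 CPM with FGF1 and 14.4, 19.6 and 29.8 CPM with vehicle, a smaller amount of the gene but a log2 fold change of 0.72 ± 0.20 (FDR = 0.0276, with 2.64% of the genes tested there called higher). The groups overlapped. FGF1 was higher in 5 of 6 batches, each with 1 mouse per group, and the call was lost with batch as a covariate (FDR = 0.0552) and with DESeq2 (0.0525). Ccnd1 did not pass the filter in the other tanycyte-like clusters, where its lowest, median and highest levels were 21.4, 36.2 and 40.1 against 8.82, 26.1 and 32.3 CPM (cluster 7) and 22.2, 44.7 and 62.5 against 14, 32.7 and 38.9 CPM (cluster 10).

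Ccnd2 was highest in the cells that line the ventricle. In tanycyte-like cluster 7, the 5 FGF1 mice with enough cells had 241, 261 and 374 CPM (lowest, median and highest) and the 6 vehicle mice 159, 173 and 216 CPM. This was the 1 pair of 48, and of the 23 that passed the filter, whose groups did not overlap, against 0.775% of all tests that passed it with FGF1 above and 0.783% below, and its log2 fold change was 0.60 ± 0.15 (FDR = 0.0288, with 0.968% of genes called higher). Tanycyte-like cluster 10 had 244, 331 and 364 against 136, 191 and 273 CPM (0.63 ± 0.17, FDR = 0.0499, 0.973% of genes called higher), and tanycyte-like cluster 0 had 235, 263 and 294 against 174, 195 and 258 CPM (0.38 ± 0.11, FDR = 0.0450). The calls in clusters 10 and 0 lay near the threshold, and both were lost with RLE size factors (FDR = 0.0548 and 0.0506), with batch as a covariate (0.0814 and 0.0540) and without cells above the mitochondrial or ribosomal limit (0.111 and 0.0662). Cluster 7 held 2721 FGF1 cells and 590 vehicle cells.

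Endothelial-like cluster 3 met all 7 endothelial markers and also 6 of 9 pericyte and smooth muscle markers, so the name holds both signals. It had Ccnd2 levels of 131, 153 and 170.4 CPM with FGF1 and 73.6, 108 and 132 CPM with vehicle (log2 fold change 0.60 ± 0.15, FDR = 0.0390, 0.363% of genes called higher). Only the lowest FGF1 mouse lay within the vehicle range, and the call was lost with DESeq2 (FDR = 0.0557). Ccnd1 in the same cells gave −0.10 ± 0.21 (FDR = 0.896) and Ccnd3 0.18 ± 0.16 (FDR = 0.685), and the difference between the genes was not tested. The tanycyte list in cluster 3 stood at 260.5 to 584 CPM with FGF1 and 204 to 330 CPM with vehicle and its part in the Ccnd2 result was not tested, while the 7 endothelial markers summed to 10112 to 12129 against 8589 to 12012 CPM.

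**Figure D3:**
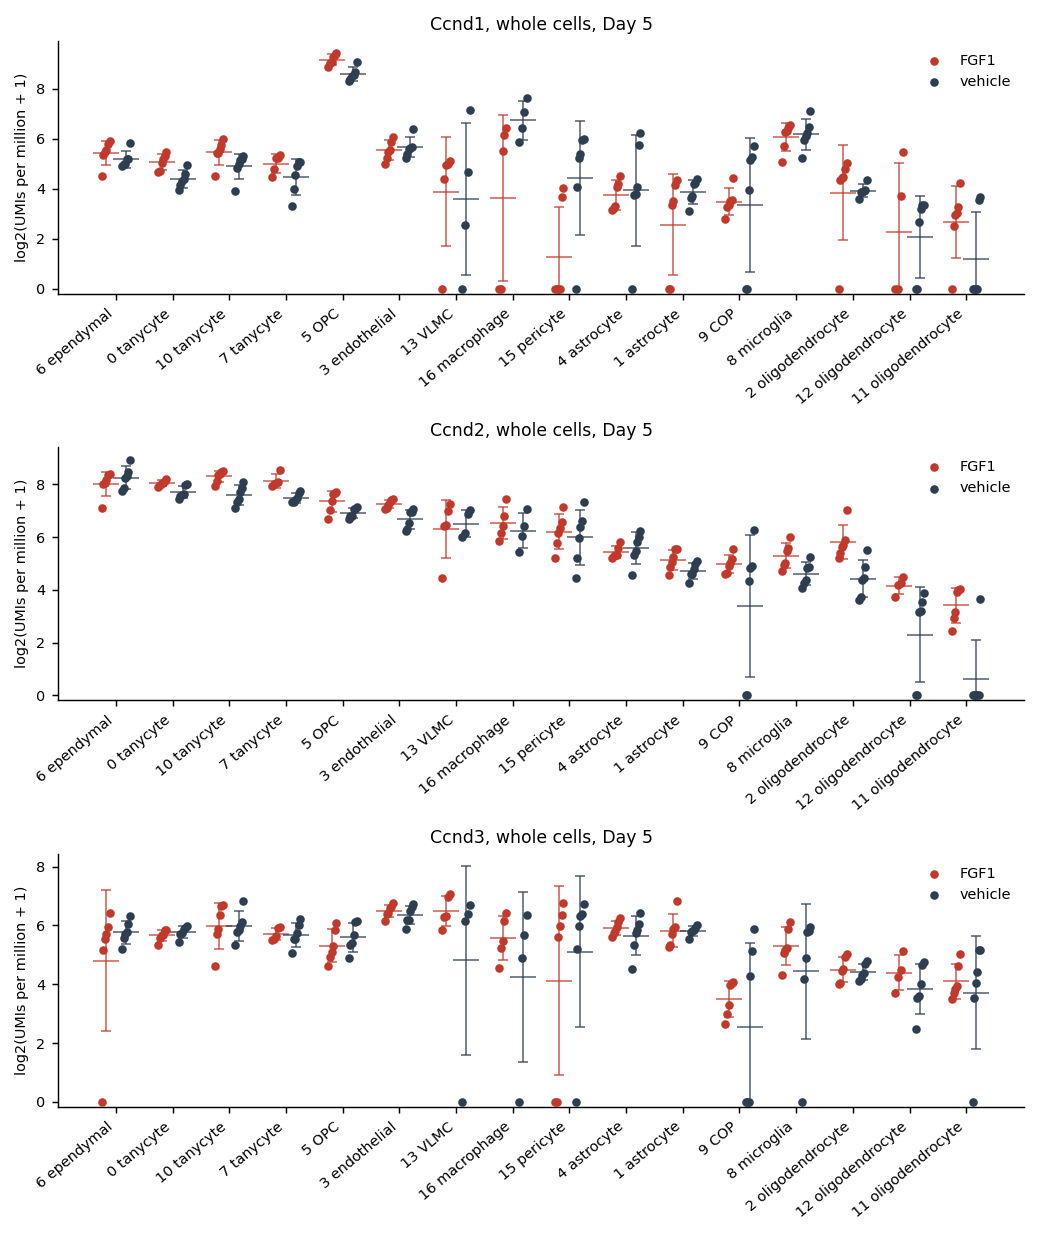
Levels of the 3 genes in Day 5 whole cells (vertical axis, log2 of CPM plus 1) by cluster number and marker-based name, ordered by Ccnd2 in vehicle mice, for FGF1 mice (red) and vehicle mice (dark blue). Points are mice and bars are mean ± SD on the log2 scale; among these 16 clusters Ccnd1 is highest in OPC-like cluster 5, at 316 to 682 CPM, and Ccnd2 in ependymal-like and tanycyte-like clusters.

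In the same libraries the summed level of the 8 astrocyte markers was lower with FGF1 in cluster 0 (1921 to 2958 against 3696 to 4859 CPM), cluster 7 (1444 to 1845 against 1937 to 2966 CPM) and cluster 10 (783 to 1157 against 1299 to 2623 CPM), with no overlap. In cluster 5 the 6 OPC markers summed to 3044 to 3713 CPM with FGF1 and 2886 to 3686 CPM with vehicle, and the 5 neuron markers to 887 to 1099 against 1100 to 1237 CPM. The part of these values in the cyclin results was not tested.

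Ependymal-like cluster 6, in contrast, showed no higher Ccnd2. The lowest, median and highest levels were 138, 271 and 333 CPM with FGF1 and 212, 311 and 480.5 CPM with vehicle (log2 fold change −0.09 ± 0.16, FDR = 0.868). Set against the mean effect in the other clusters, the Ccnd2 effect in cluster 6 was lower by 0.69 ± 0.17 on the log2 scale, which missed the threshold (FDR = 0.0640) and passed it with RLE size factors (0.0250). None of the other such contrasts, 48 in all, was called either, among them those of Ccnd1 in cluster 0 (0.69, FDR = 0.535) and cluster 5 (0.49, FDR = 0.508). In edgeR 6 of the 48 had an unadjusted p below 0.05, and 0.972% of all such tests were called.

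Oligodendrocyte-like cluster 2 had the largest fitted Ccnd2 change, with 35.6, 49.4 and 128 CPM in FGF1 mice and 11.3, 20.3 and 44.7 CPM in vehicle mice. FGF1 was higher in 6 of 6 batches, and the log2 fold change of 1.17 ± 0.32 had an FDR of 0.101. It passed the threshold with batch as a covariate (FDR = 0.00255), with DESeq2 (0.0180) and without the filter (0.0483). Oligodendrocyte-like cells fell into different clusters by group, with 1799 FGF1 and 5610 vehicle cells in cluster 2 and 1212 and 166 in cluster 11, so the cells compared within a cluster may not be alike. In OPC-like cluster 5, Ccnd2 stood at 102, 181 and 206 against 102, 122 and 138 CPM (0.43 ± 0.15, FDR = 0.111). Ccnd3 gave log2 fold changes between −0.23 and 0.18 in its 8 tested clusters, none of them called.

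**Figure D4:**
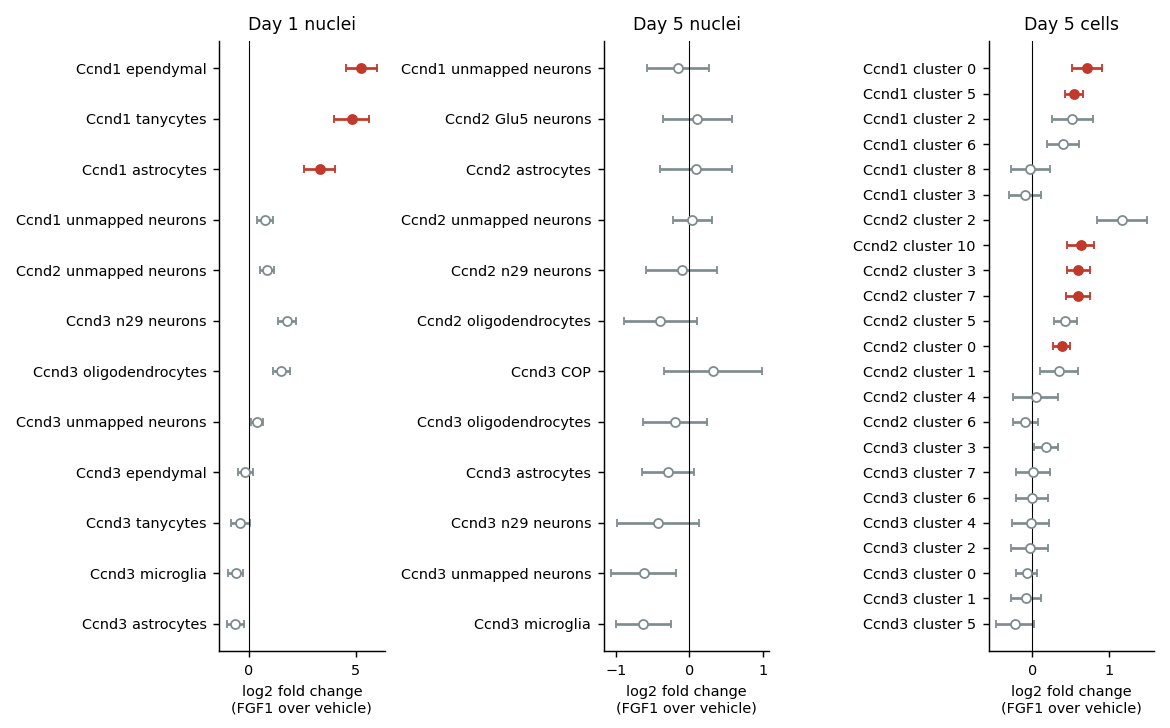
Log2 fold changes of FGF1 over vehicle (horizontal axis) with SE bars for each pair of a cyclin and a type that passed the filter, in Day 1 nuclei, Day 5 nuclei and Day 5 cells; the scales differ between panels. Filled red points are called at an FDR below 0.05, 3 on Day 1 and 6 in Day 5 cells, and lie above 0. The 3 on Day 1 are Ccnd1, which passed the filter only through its FGF1 mice, so their direction was fixed. Over all genes, 0.653% of tests were called higher and 0.393% lower on Day 1, and 0.854% and 0.896% in Day 5 cells.

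At equal depth, with each cell thinned to 800 UMIs, 35.9% ± 5.7 (SD, n = 6) of OPC-like cells of cluster 5 held a Ccnd1 UMI with FGF1 and 25.2% ± 4.4 with vehicle (exact two-sided permutation p = 0.00866, adjusted over 48 tests 0.0831). In oligodendrocyte-like cluster 2, where Ccnd1 is low, the shares were 1.26% ± 0.71 and 1.05% ± 0.34, at median depths of 1273 and 1308 UMIs against 1224 and 1255 in cluster 5. Unthinned shares in cluster 5 were 50.4% and 38.8%. For Ccnd2, the thinned shares were 17.8% against 14.1% in cluster 0, 22.2% against 13.9% in cluster 10 and 19.4% against 11.9% in cluster 7, each with an exact permutation p of 0.00433 and an adjusted p of 0.0693. In cluster 3 they were 10.3% and 6.44% (adjusted p = 0.0779, exact permutation test). No share passed after adjustment.

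Because Ccnd1 marks OPCs and also cells entering the cycle, cluster 5 was split by a list of 16 genes of S phase and mitosis. Their summed level was 200.4 ± 43.9 CPM (SD, n = 6) with FGF1 and 129 ± 14 CPM with vehicle (ratio 1.56, exact permutation p = 0.00216, the smallest that 6 against 6 mice can give, adjusted over 11 tests 0.0238). The split and its tests were added after the data were seen, and no other gene set was compared. OPC-like cells led by genes of mitosis formed a separate cluster, so genes of this kind helped decide which cells stayed in cluster 5. Tested gene by gene, 0 of the 15 tests of these genes in Day 5 cells were called. The share of cells with a UMI of the list was 19.6% ± 3.1 against 15% ± 2.9 (exact permutation p = 0.026, adjusted 0.0714). In cells without any such UMI, Ccnd1 stood at 573 ± 79.0 CPM against 385 ± 56.7 CPM (ratio 1.49), and in all cells of the cluster at 579 ± 84.2 against 388 ± 79.7 CPM (ratio 1.49, p = 0.00866, adjusted 0.0317, exact permutation). Cells with such a UMI were only 267 of 1377 with FGF1 and 353 of 2437 with vehicle, so leaving them out could move the ratio little whatever state the cells were in, and the split is a description. The mice's median cell of cluster 5 held 996 to 1983 UMIs, so a cell without a UMI of the list may still hold its transcripts.

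OPC-like cluster 17, whose leading genes were those of mitosis, had 10 or more cells in 5 FGF1 mice (97 cells) and in no vehicle mouse, so it allowed no comparison. In those mice Ccnd1 stood at 478 to 812 CPM, Ccnd2 at 137 to 373 CPM and Ccnd3 at 0 to 74.6 CPM, ranges that overlapped those of cluster 5 in FGF1 mice for all 3 genes. Within mice 6, 7, 21, 28 and 36, Ccnd2 was 137, 261, 285, 257 and 373 CPM in cluster 17. In cluster 5 of the same mice it was lower each time, at 130, 202, 197, 102 and 165 CPM. Ccnd1 was higher in cluster 17 in these mice except mouse 28, and Ccnd3 went both ways. These differences were not tested.

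**Figure D5:**
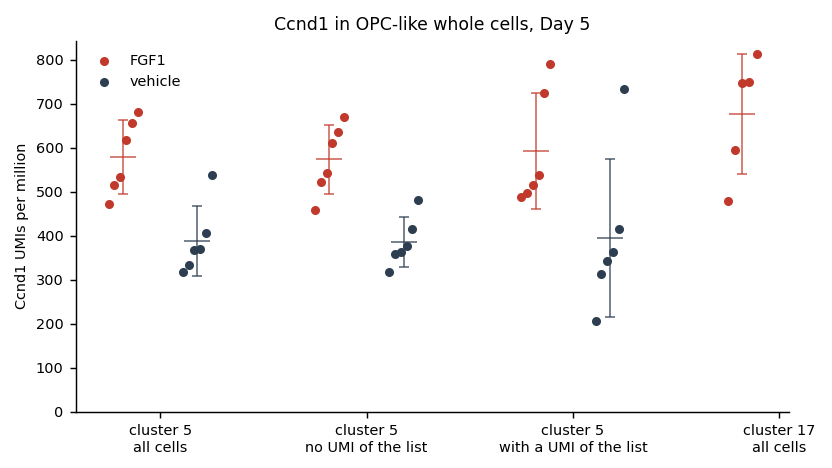
Ccnd1 in OPC-like whole cells on Day 5 (vertical axis, CPM) for cluster 5 as a whole, its cells without and with a UMI of the S phase and mitosis list, and cluster 17, with FGF1 mice in red and vehicle mice in dark blue. Points are mice with at least 10 such cells and bars are mean ± SD. The FGF1 mean is 579 CPM in all cells of cluster 5 and 573 CPM in those without a UMI of the list, against 388 and 385 CPM with vehicle.

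In whole cells of vehicle mice, the ranges of neighbouring clusters parted at 1 place in the order for Ccnd1 and Ccnd2 and at none for Ccnd3. Among the 16 tested clusters, Ccnd1 in whole cells was highest in OPC-like cluster 5 at 388 ± 79.7 CPM (SD, n = 6), and its range did not meet that of the next, macrophage-like cluster 16 at 117 ± 60.9 CPM (n = 4). Below these came microglia-like cluster 8 at 77.7 ± 34.0 CPM and endothelial-like cluster 3 at 51.4 ± 16.7 CPM, and every further neighbour in the order overlapped the one above, down to oligodendrocyte-like cluster 11 at 3.72 ± 5.77 CPM. Ccnd2 was highest in ependymal-like cluster 6 at 316 ± 96.6 CPM, followed by tanycyte-like clusters 0 (209 ± 35.9 CPM), 10 (197 ± 50.6 CPM) and 7 (179.7 ± 23.3 CPM), whose neighbours overlapped. A gap in ranges separated cluster 7 from OPC-like cluster 5 at 121 ± 15.5 CPM, and the lowest was cluster 11 at 1.94 ± 4.76 CPM. Ccnd3 ran from 82.7 ± 17.9 CPM in endothelial-like cluster 3 to 15.4 ± 8.4 CPM in oligodendrocyte-like cluster 12, with all neighbours overlapping.

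In Day 1 vehicle nuclei, Ccnd3 was highest in ependymal nuclei at 273 ± 92.2 CPM (n = 3), then microglia at 190.4 ± 64.7, VLMC (vascular and leptomeningeal cells) at 153 ± 42.2, tanycytes at 148 ± 7.3 and astrocytes at 139 ± 44.0 CPM, all with overlapping ranges. The next type, Glu6 neurons at 51.7 ± 34.1 CPM (n = 2), lay below without overlap. Ccnd1 in vehicle nuclei had no such order, since all 18 types lay at or below 19.0 CPM with overlapping ranges. With FGF1, ependymal nuclei (267 ± 44.6 CPM), tanycytes (98.2 ± 26.5 CPM) and astrocytes (54.3 ± 10.5 CPM) came first in Ccnd1, each without overlap with the one before it, and COP at 48.4 ± 7.7 CPM overlapped astrocytes.

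Genes whose log2 level followed each cyclin most closely over the 16 whole-cell clusters of vehicle mice were Camk1, Rpl13 and Lrrfip1 for Ccnd1 (Pearson r of 0.885, 0.868 and 0.854), Hmgn1, Frmd6 and Ensa for Ccnd2 (0.946, 0.935 and 0.925) and Cdc42ep4, Adamts10 and Sdc2 for Ccnd3 (0.929, 0.917 and 0.907). Among the cyclins themselves, r was 0.786 for Ccnd2 with Ccnd3, 0.588 for Ccnd1 with Ccnd2 and 0.507 for Ccnd1 with Ccnd3. The points share libraries and differ in depth. In Day 1 vehicle nuclei (18 types), the genes most like Ccnd3 were Slc39a12, Acly and Fads2 (0.937, 0.903 and 0.900), whereas Ccnd1 reached a mean of 20 CPM in no vehicle type, which leaves its order over those types without weight.

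Partners and targets of D-type cyclins were tested in the same fits. Of the 125 tests of pathway genes on Day 1 (kinase partners, kinase inhibitors, Rb and E2F factors, turnover, upstream transcription factors, and S phase and mitosis genes), 4 were called higher and 0 lower, against 0.653% and 0.393% of all tests. Jun, an upstream factor of the AP-1 family known to act on the Ccnd1 promoter, was among them in astrocytes (101 ± 52.6 CPM with FGF1 and 3.6 ± 4.87 CPM with vehicle, log2 fold change 5.01 ± 0.81, FDR = 0.0122) and in tanycytes (128 ± 72.8 against 7.05 ± 7.01 CPM, 4.54 ± 0.82, FDR = 0.00449). The lowest vehicle mouse had 0 CPM of Jun in each type, and the lowest FGF1 mouse 54.7 and 73.1 CPM. Like Ccnd1, Jun thus passed the filter there only through its FGF1 mice. The direction of its calls was fixed by that, and they are not independent support for the Ccnd1 result. Cdk4, the kinase partner, was higher in tanycytes (113 ± 24.9 against 23.5 ± 29.8 CPM, 2.17 ± 0.61, FDR = 0.0429) but not called in astrocytes (0.42 ± 0.45, FDR = 0.956). The fourth was Etv5, an ETS factor downstream of FGF receptors, in n29.Nr5a1/Adcyap1 neurons (2.61 ± 0.40, FDR = 0.0243), which is named here after its values were seen. None of the 10 tests of S phase and mitosis genes and none of the 32 tests of Rb family and E2F factors was called on Day 1.

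Of 120 such tests in Day 5 nuclei, 0 were called. In Day 5 cells 2 of 166 were called, both of them Cdk4 and both higher, against 0.854% of all tests called higher. Cdk4 stood at 196 ± 32.4 CPM with FGF1 and 125 ± 33.1 CPM with vehicle in OPC-like cluster 5 (log2 fold change 0.63 ± 0.15, FDR = 0.0204) and at 384 ± 54.6 against 190.6 ± 68.0 CPM in COP-like cluster 9 (1.00 ± 0.20, FDR = 0.00518). In tanycyte-like cluster 0, where both Ccnd1 and Ccnd2 were called, Cdk4 had a log2 fold change of 0.45 ± 0.14 and an FDR of 0.0506. In the other clusters with a called cyclin it gave 0.43 ± 0.19 in cluster 7 (FDR = 0.241), 0.14 ± 0.17 in cluster 3 (FDR = 0.784) and −0.13 ± 0.23 in cluster 10 (FDR = 0.909). Ccnd1 in COP-like cluster 9 stood at 5.86, 9.89 and 20.5 CPM with FGF1 and 0, 24.5 and 52.0 CPM with vehicle, and did not pass the filter.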

How the data were processed

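Per the labels and the study's methods, hypothalamic nuclei and whole cells were sequenced with 10x 3' v2 chemistry. Reads were counted by Cell Ranger 1.2, and for nuclei the reference also held introns. The authors deposited raw UMI counts per gene and barcode with their annotation, and the percent of each cell's UMIs from mitochondrial and ribosomal genes. They removed neurons and predicted doublets from the whole cells, and no doublet caller was applied to nuclei. Here the counts were summed per mouse and type (at least 10 cells per mouse, at least 2 mice per group). Each type was tested with edgeR 4.0.16 (R 4.3.3), with filterByExpr, TMM factors, a robust quasi-likelihood test and Benjamini-Hochberg FDR over all genes tested in the type. The SE is the absolute log2 fold change divided by the square root of F. CPM values are unfitted. Intervals of pooled ratios are exact 95% intervals, and they cover counting error only. Shares of cells and summed list levels were compared by exact two-sided permutation of mice. Tests within a type or cluster rest on the variation between mice. The fits of 1 type against the others had mouse as a block, so their p-values rest on the variation between types within mice.

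The members, gene lists and tests were chosen with earlier results of these data known. Named genes were the members, the 3 genes most like each, and pathway genes meeting a rule on calls. The rule was a call in Day 1 tanycytes, ependymal nuclei or astrocytes, or in at least 2 clusters of Day 5 cells. Cdk4 was also given in types with a called cyclin where Cdk4 itself was not called. Etv5 did not meet the rule and was named after its values were seen. The genes most like Ccnd2 in Day 1 nuclei are not reported here. The fit of Ccnd1 over 13 types and the split of cluster 5 were added after the data were seen. Alternatives were RLE factors, DESeq2 1.42.0, no filter, 20 cells per mouse, batch, a replicate block, the stated mitochondrial and ribosomal limits (5% in nuclei, 20% in cells), merged clusters and leaving out each mouse. Tested on simulated data, edgeR recovered 88.7% of genes changed by 2 and 100% of those changed by 3 on the log2 scale in Day 1 tanycytes (2624 genes). It falsely called 9 of 2432 unchanged genes. The changed genes had an expected count above 20 UMIs per mouse, which Ccnd1 in these nuclei did not reach. The recovery thus does not carry over to Ccnd1 there or to the smaller changes called in Day 5 cells. Deviations of same-numbered Day 1 mice from their group means correlated with r from −0.504 to 0.522. With 3 mice per group this cannot settle whether the numbers pair mice, and the main fits did not pair them.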

Additional observations from a re-analysis of the deposited data

Results flagged for a closer look

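The difference of the Ccnd1 effect in Day 1 ependymal nuclei from the mean effect in the other types was 4.17 ± 1.13 on the log2 scale (edgeR, FDR = 0.0277), over 13 types chosen after the data were seen and with 1 vehicle UMI in ependymal nuclei, so it is a description. In 5 of 46 groups of mice, all of them of Day 5 cells, 1 mouse stood far from the others, where chance flags about 1 group in 20. Groups of nuclei held too few mice for this rule and were not examined. Vehicle mouse 27 had 83.9 CPM of Ccnd1 in endothelial-like cluster 3, where the other vehicle mice had 36.8 to 49.9 CPM, and 56.0 CPM in ependymal-like cluster 6, where the others had 28.8 to 36.0 CPM. FGF1 mouse 21 had 128 CPM of Ccnd2 in oligodendrocyte-like cluster 2 (others 35.6 to 58.8 CPM) and 374 CPM in tanycyte-like cluster 7 (others 241 to 273 CPM). FGF1 mouse 7 had 114 CPM of Ccnd3 in astrocyte-like cluster 1, and the others had 37.2 to 61.2 CPM. Nuclei that the authors marked as filtered entered no comparison. On Day 1 the lowest FGF1 mouse had 43.3 CPM of Ccnd2 in them and the vehicle mice 0 to 18.7 CPM, and on Day 5 the lowest FGF1 mouse had 12.4 CPM of Ccnd3 and the vehicle mice 0 to 11.1 CPM, from 2 UMIs against 4. The other 4 combinations of gene and day in these nuclei did not have every FGF1 mouse above every vehicle mouse, with Ccnd1 at 7.88 to 40.3 against 0 to 9.34 CPM on Day 1 and at 0 to 1.35 against 11.1 to 19.9 CPM on Day 5, Ccnd3 on Day 1 at 30.1 to 93.9 against 48.0 to 65.4 CPM, and Ccnd2 on Day 5 at 6.21 to 18.9 against 11.1 to 39.7 CPM. The share over all genes was not computed.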

How the results depend on the processing

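In Day 1 nuclei the count of called cyclin and type pairs was 3, and it became 5 without a filter on low counts and 1 without nuclei above the mitochondrial or ribosomal limit, where Ccnd1 did not pass the filter in astrocytes and tanycytes. It ran from 2 to 4 when 1 mouse was left out, and the ependymal and tanycyte calls of Ccnd1 held in all 6 of those fits. Ccnd1 passes the filter there only through its FGF1 mice, so these refits are not independent support. Without vehicle mouse 2 the vehicle mice had no Ccnd1 UMI in these types, so the size of that fold change cannot be read. In Day 5 cells the count was 6 and ran from 1 to 6 when 1 mouse was left out. It was 1 without FGF1 mouse 21 or vehicle mouse 20, 2 without FGF1 mouse 7 or vehicle mouse 22 or 25, and 3 without FGF1 mouse 6 or 10 or vehicle mouse 29. It was 4 under each of 4 alternatives, with turnover. DESeq2 lost Ccnd1 in cluster 0 and Ccnd2 in clusters 3 and 10 and gained Ccnd2 in cluster 2, batch lost Ccnd1 in cluster 0 and Ccnd2 in clusters 0 and 10 and gained Ccnd2 in cluster 2, and RLE factors and the mitochondrial limit lost Ccnd2 in clusters 0 and 10. The count of types whose effect differed from that in the others was 0, and it was 1 with RLE factors (Ccnd2 in cluster 6) and 1 for Ccnd1 over the Day 1 types with a UMI in both groups (ependymal nuclei). The cause of these changes was not tested. For Day 1 nuclei the count of 0 settles nothing, since the means in the contrasts include types without an estimate. Day 5 nuclei gave 0 calls under every alternative run, as did the difference between the days. The shares of cells gave 0 with and without thinning, which for nuclei was fixed in advance, since the smallest possible p was 0.1 on Day 1 and 0.333 on Day 5. In Day 5 cells the smallest possible p of the exact permutation test was 0.00216 for 6 against 6 mice, over 48 tests. A single share at that p could not have passed the adjustment, so the 0 there says little. No result reversed in direction. With the replicate number as a block, Day 1 again gave 3 calls, and the block changed no other call. Batch could not be fitted in Day 1 GABA15 and n02.Gm8773/Tac1 neurons, and a minimum of 20 nuclei per mouse gave no new fit in Day 5 nuclei. In Day 1 nuclei, Ccnd1 rested on 1 vehicle UMI among 47 ependymal nuclei and on 1 among 87 tanycytes, from 3 mice.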
